A study of Mus musculus with 9 samples.

Results

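The genes described here are the Wnt7 ligands Wnt7a and Wnt7b, the 6 Frizzled receptors Fzd1, Fzd2, Fzd3, Fzd7, Fzd8 and Fzd9, and the co-receptors Lrp5 and Lrp6. They were taken by name, as 10 genes of the 78275 gene IDs in the deposited count table. All 10 passed the filter on low counts that left 27773 genes for testing. Wnt ligands are secreted lipid-modified glycoproteins that bridge a Frizzled receptor and Lrp5 or Lrp6 at the surface of the receiving cell. The bridged complex recruits Dishevelled, the β-catenin destruction complex is held inactive, and β-catenin enters the nucleus to act with Tcf and Lef factors. In the developing cortex this pathway is known for its part in progenitor proliferation and neuronal differentiation, and Frizzled 3 for its part in axon tract formation with the planar polarity proteins. Glypicans such as Gpc4 and Gpc2 are heparan sulfate proteins of the cell surface that can bind Wnt ligands.

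The 3 groups were sh-Gpc4, sh-Gpc2 and sh-NT, with 3 libraries each. Every group was of wild-type mouse embryos electroporated in utero at E14.5 with a plasmid that carries mCherry and a microRNA-type short hairpin, against Gpc4, against Gpc2 or of scrambled sequence (sh-NT). Cells positive for mCherry were sorted from the forebrain 48 h later, at E16.5, and the labels name them as cortical progenitors and neurons. The sources used here give neither the strain, the plasmid's promoter nor the number of embryos behind a library. Nor do they say whether the 3 libraries of a group stem from different litters, so p-values measure only the spread between libraries, which may be technical. Libraries are called by the number in their column name.

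Total counts ran from 48045603 to 66538437 reads per library. The first principal component of 12365 genes held 71.4% of the variance, and sh-Gpc4 library 3 (score 45.2) and sh-Gpc2 library 4 (35.7) lay far from the rest, followed by sh-Gpc4 library 4 (15.6). The other 6 libraries scored between -25.3 and -5.4, so results are also given without the outermost pair. Gpc4 measured 137, 99.9 and 129 CPM (counts scaled to the library size by the TMM method) in sh-Gpc4 libraries 1, 3 and 4, against 165, 188 and 175 CPM in sh-NT libraries 1, 2 and 4, a log2 fold change of -0.53 (adjusted p = 0.488 in edgeR's quasi-likelihood test). Gpc2 measured 167, 145 and 79.6 CPM in sh-Gpc2 libraries 1, 2 and 4, against 200, 207 and 161 CPM in sh-NT libraries, a log2 fold change of -0.54 (adjusted p = 0.968 in edgeR's test). Neither hairpin's target passed the threshold of 0.05. Gpc2 was also lower in sh-Gpc4 libraries, with 168, 70.3 and 96.6 CPM, at -0.76 in log2 against sh-NT (adjusted p = 0.488 in edgeR), so its lower values were not particular to its own hairpin. Markers of radial glia summed to between 1740 and 2260 CPM in sh-Gpc4, between 2040 and 2880 CPM in sh-Gpc2 and between 2040 and 2210 CPM in sh-NT libraries, and newborn excitatory neuron markers to between 3400 and 4110 CPM over the 9 libraries, so markers of both labelled cell types were detected.

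On GRCm38 (GENCODE M21) the ligand genes lie as Wnt7a at chr6:91363981-91411363 (minus strand) and Wnt7b at chr15:85535437-85582473 (minus strand). The receptor genes are Fzd1 at chr5:4753839-4758035 (minus strand), Fzd2 at chr11:102604396-102608058 (plus strand), Fzd3 at chr14:65192449-65262463 (minus strand), Fzd7 at chr1:59482424-59486955 (plus strand) and Fzd9 at chr5:135248938-135251230 (minus strand), and Fzd8. All but Fzd3 consist of 1 exon. The co-receptor genes are Lrp5 at chr19:3584828-3686564 (minus strand) and Lrp6 at chr6:134446476-134566965 (minus strand).

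Sequence sets how well reads of related members can be told apart. Wnt7a and Wnt7b share no stretch of 31 bases, and the longest run common to their coding sequences has 23 bases, shown in capitals between flanks of 20 bases from the longest GENCODE M21 transcripts (GRCm38). It lies in the conserved Wnt region around the serine to which the acyltransferase Porcn attaches a lipid, at chr6:91366247-91366309 for Wnt7a and chr15:85537787-85537849 for Wnt7b, both on the minus strand.
Wnt7a: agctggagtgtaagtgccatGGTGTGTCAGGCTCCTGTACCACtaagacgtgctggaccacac
Wnt7b: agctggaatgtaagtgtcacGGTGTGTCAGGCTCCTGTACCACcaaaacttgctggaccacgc
Fzd1, Fzd2 and Fzd7 are single-exon genes of 1 subfamily and do share such stretches, in 1.61%, 1.9% and 0.777% of the 31-base windows of their transcripts. The longest run common to the coding sequences of Fzd1 and Fzd2 has 47 bases, at chr5:4756311-4756397 on the minus strand and chr11:102605720-102605806 on the plus strand with its flanks, and is shown because reads lying wholly inside it could come from either gene.
Fzd1: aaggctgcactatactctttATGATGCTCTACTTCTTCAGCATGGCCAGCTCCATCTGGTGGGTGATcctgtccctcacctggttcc
Fzd2: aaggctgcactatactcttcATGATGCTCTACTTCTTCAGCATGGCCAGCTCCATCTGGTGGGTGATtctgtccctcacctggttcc
Fzd8 and Fzd9 share no 31-base window with any other gene. Lrp5 shares 1.81% of its windows with 798 other genes, Fzd3 0.535% with 2790 and Lrp6 0.182% with 8. Wnt7b shares 1.78% of its windows with AU022754, a gene that overlaps it on the other strand, and the sources used here do not state whether counting used strand.

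The RefSeq promoter table (GRCm38.p6) held 4 of the 10 members, Wnt7a, Fzd1, Fzd7 and Fzd9. The 250 bases before the start are printed for the most and the least GC-rich of the 4, Wnt7a (77.6% GC) and Fzd1 (51.2% GC), against a median of 52.4% over 32851 promoters.
Wnt7a promoter: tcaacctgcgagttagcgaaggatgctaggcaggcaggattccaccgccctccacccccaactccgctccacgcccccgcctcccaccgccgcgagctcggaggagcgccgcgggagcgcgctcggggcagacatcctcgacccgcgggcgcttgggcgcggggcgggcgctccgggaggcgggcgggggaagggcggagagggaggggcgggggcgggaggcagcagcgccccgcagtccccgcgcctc
Fzd1 promoter: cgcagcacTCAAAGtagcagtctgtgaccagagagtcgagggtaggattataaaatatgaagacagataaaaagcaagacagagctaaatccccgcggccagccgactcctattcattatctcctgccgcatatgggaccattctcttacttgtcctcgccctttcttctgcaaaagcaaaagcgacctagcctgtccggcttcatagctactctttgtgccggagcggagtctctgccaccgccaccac
The first lies at chr6:91411354-91411603 and the second at chr5:4758217-4758466, both on the minus strand. Capitals mark the core of the Tcf/Lef motif, CTTTGA or its reverse complement TCAAAG, searched on both strands. It occurred once among the 4 promoters, in Fzd1, with its first base 242 bases before the start, and in 13.8% of all promoters.

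Wnt7b was the highest Wnt ligand in these cells. It measured 82.5, 36.2 and 50.9 CPM in sh-Gpc4 libraries 1, 3 and 4, 183, 111 and 40.7 CPM in sh-Gpc2 libraries 1, 2 and 4, and 137, 178 and 149 CPM in sh-NT libraries 1, 2 and 4. All 3 sh-Gpc4 libraries lay below all 3 sh-NT libraries, while the sh-Gpc2 libraries spanned both, with library 4 near the lowest sh-Gpc4 library and library 1 above every sh-NT library. The mean was 56.6 ± 23.7 CPM in sh-Gpc4 and 155 ± 21.3 CPM in sh-NT (SD, n = 3 each), which is 0.365 times the sh-NT level, or -1.45 as a log2 fold change (SE 0.47, 95% interval from -2.51 to -0.40). edgeR's quasi-likelihood test gave an unadjusted p of 0.012 and an adjusted p of 0.488, which did not pass. No gene in the comparison had a lower adjusted p, and others shared this value. An exact two-sided permutation test of the 6 values gave p = 0.1, the smallest that 3 against 3 allows.

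sh-Gpc2 libraries averaged 112 ± 71.2 CPM of Wnt7b, against 155 ± 21.3 CPM in sh-NT libraries (SD, n = 3 each), or -0.47 as a log2 fold change (SE 0.46, 95% interval -1.51 to 0.56, adjusted p = 0.968 in edgeR). Without sh-Gpc2 library 4 this was -0.07, and without sh-Gpc2 library 1 it was -1.03. sh-Gpc4 over sh-Gpc2 gave -0.98 (95% interval -2.02 to 0.06, adjusted p = 0.966 in edgeR). This value was -0.42 without sh-Gpc2 library 1, -1.38 without sh-Gpc2 library 4 and -0.55 with the replicate block. The block was the column number, and number 3 occurs only in sh-Gpc4, so the block in effect leaves out sh-Gpc4 library 3. The difference between the hairpins was not past the threshold, and its interval covers both no difference and one larger than that between sh-Gpc4 and sh-NT.

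Wnt7a, a ligand of the same class made by cortical progenitors, measured 11.4, 6.48 and 12.1 CPM in sh-Gpc4 libraries, 13.9, 18.1 and 7.73 CPM in sh-Gpc2 libraries and 15, 17.7 and 11.9 CPM in sh-NT libraries, in the library order given above. The lowest values of the 2 hairpin groups again came from sh-Gpc4 library 3 and sh-Gpc2 library 4, and the groups overlapped. On the log2 scale sh-Gpc4 over sh-NT was -0.57 (SE 0.32, adjusted p = 0.489 in edgeR), and -0.33 without sh-Gpc4 library 3. sh-Gpc2 over sh-NT gave -0.17 (SE 0.32, adjusted p = 0.968 in edgeR), which turned to 0.11 without sh-Gpc2 library 4.

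The ratio of both ligands within a library does not depend on its size. Wnt7b was 7.26, 5.59 and 4.2 times Wnt7a in CPM in sh-Gpc4 libraries, 13.2, 6.13 and 5.26 times in sh-Gpc2 libraries and 9.14, 10.1 and 12.6 times in sh-NT libraries. The 3 sh-Gpc4 ratios lay below the 3 sh-NT ratios. On the log2 scale the ratio averaged 2.47 ± 0.39 in sh-Gpc4 and 3.39 ± 0.24 in sh-NT (SD, n = 3 each), a difference of -0.92 (exact two-sided permutation p = 0.1, adjusted p = 0.3 over 6 ratio tests), and -0.93 without the outermost pair of libraries. For sh-Gpc2 the mean was 2.91 ± 0.71, -0.48 from sh-NT (exact permutation p = 0.4, adjusted 0.6). Since 3 against 3 cannot go below 0.1, none of the 6 could pass.

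**Figure D1:**
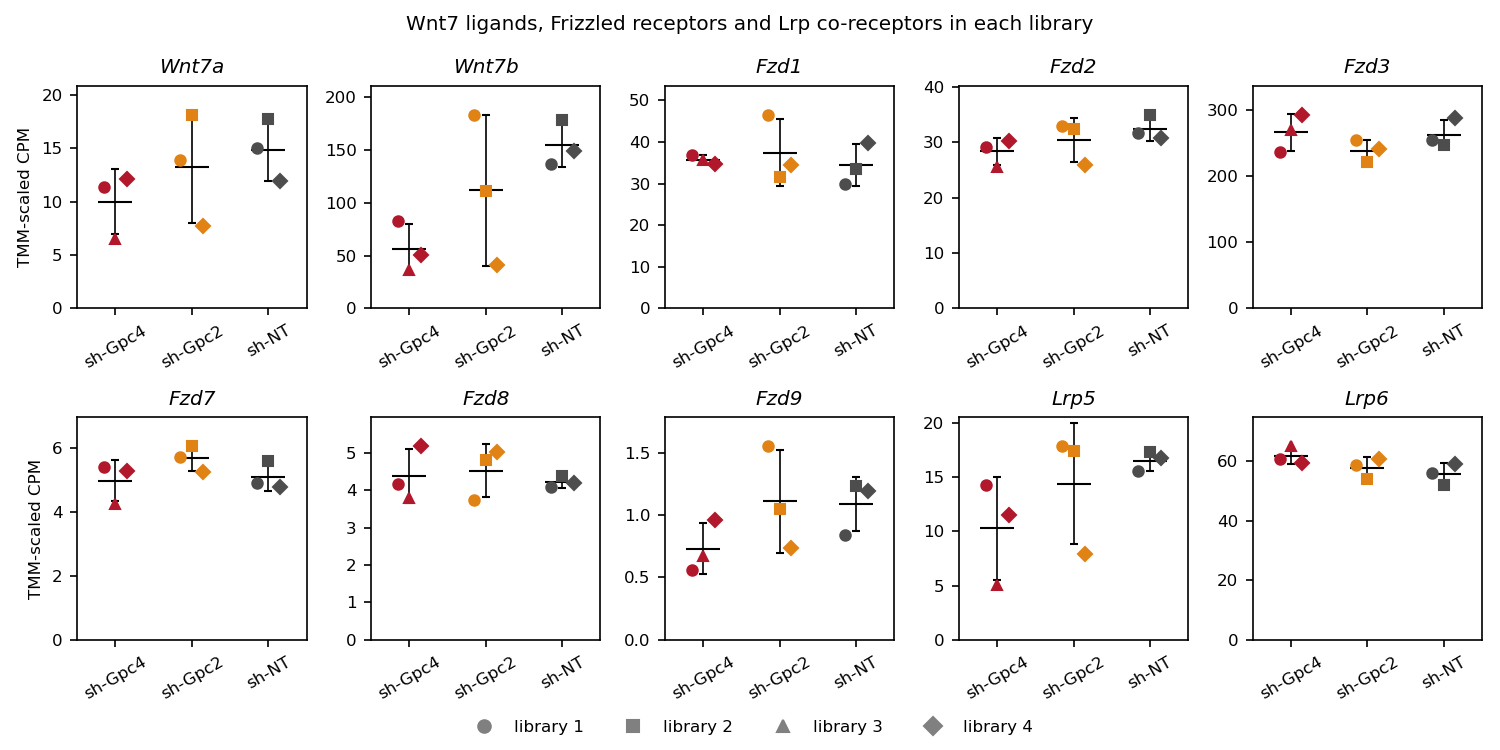
TMM-scaled CPM (y axes, from 0) of the 10 genes in the sh-Gpc4, sh-Gpc2 and sh-NT libraries; symbols mark the library number, and black bars the mean and SD of 3 libraries. Wnt7b runs from 36.2 to 82.5 CPM in sh-Gpc4, from 40.7 to 183 CPM in sh-Gpc2 and from 137 to 178 CPM in sh-NT, whereas the 3 groups of Fzd1, Fzd3 and Fzd8 lie over each other.

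Of the Frizzleds, the membrane receptors that bind Wnt ligands, Fzd3 had the most reads. It measured 236, 270 and 292 CPM in sh-Gpc4 libraries, 254, 221 and 240 CPM in sh-Gpc2 libraries and 254, 246 and 287 CPM in sh-NT libraries. The groups overlapped, and the log2 fold change was 0.02 for sh-Gpc4 over sh-NT (95% interval -0.22 to 0.25) and -0.14 for sh-Gpc2 over sh-NT (-0.37 to 0.10). Of the members, Lrp6 alone had narrower intervals in sh-Gpc4 over sh-NT.

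Fzd1 and Fzd2 lay close to each other. Fzd1 measured 36.8, 35.7 and 34.8 CPM in sh-Gpc4 libraries, 46.5, 31.5 and 34.4 CPM in sh-Gpc2 libraries and 29.9, 33.5 and 39.8 CPM in sh-NT libraries, with log2 fold changes of 0.05 for sh-Gpc4 (95% interval -0.30 to 0.41) and 0.12 for sh-Gpc2 (-0.24 to 0.48). Its groups overlapped in every comparison. Fzd2 measured 29.2, 25.6 and 30.2 CPM in sh-Gpc4 libraries, 32.9, 32.4 and 25.8 CPM in sh-Gpc2 libraries and 31.6, 34.9 and 30.8 CPM in sh-NT libraries. Its 3 sh-Gpc4 values were below its 3 sh-NT values by a narrow gap, with a log2 fold change of -0.20 (95% interval -0.48 to 0.09, adjusted p = 0.509 in edgeR). With the GC trend of each library removed this was 0.03.

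Fzd7, Fzd8 and Fzd9 were low. Fzd7 ran from 4.24 to 5.41 CPM in sh-Gpc4, from 5.25 to 6.04 CPM in sh-Gpc2 and from 4.78 to 5.59 CPM in sh-NT libraries, and Fzd8 from 3.78 to 5.17, from 3.73 to 5.03 and from 4.09 to 4.39 CPM in those groups. Fzd9 had between 28 and 88 reads in a library. It measured 0.559, 0.675 and 0.957 CPM in sh-Gpc4 libraries, 1.55, 1.05 and 0.733 CPM in sh-Gpc2 libraries and 0.837, 1.23 and 1.19 CPM in sh-NT libraries, with a log2 fold change of -0.56 for sh-Gpc4 over sh-NT (SE 0.31, 95% interval -1.26 to 0.15, adjusted p = 0.489 in edgeR) and 0.04 for sh-Gpc2 over sh-NT (-0.65 to 0.73). The groups of all 3 receptors overlapped in every comparison. For Fzd7 the 95% interval of sh-Gpc4 over sh-NT was -0.36 to 0.29 and for Fzd8 it was -0.33 to 0.43.

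Lrp5 and Lrp6, the single-pass co-receptors whose phosphorylated tails bind Axin, bring the Axin complex to the membrane. Lrp5 measured 14.3, 5.04 and 11.5 CPM in sh-Gpc4 libraries, 17.8, 17.4 and 7.92 CPM in sh-Gpc2 libraries and 15.5, 17.3 and 16.7 CPM in sh-NT libraries. Its 3 sh-Gpc4 values were below its 3 sh-NT values, the sh-Gpc2 values lay on both sides, and the log2 difference of sh-Gpc4 from sh-NT was -0.69 (SE 0.38, 95% interval -1.54 to 0.17, adjusted p = 0.488 in edgeR). Without sh-Gpc4 library 3 this was -0.35, and sh-Gpc2 over sh-NT was -0.20 with all libraries but 0.09 without sh-Gpc2 library 4.

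Lrp6 measured 60.9, 65 and 59.6 CPM in sh-Gpc4 libraries, 58.9, 54.0 and 60.9 CPM in sh-Gpc2 libraries and 56.2, 52.0 and 59.1 CPM in sh-NT libraries. The sh-Gpc4 values lay just above the sh-NT values, with sh-Gpc4 over sh-NT at 0.15 in log2 (SE 0.09, 95% interval -0.06 to 0.36, adjusted p = 0.499 in edgeR). The log2 ratio of Lrp5 to Lrp6 in CPM averaged -2.72 ± 0.85 in sh-Gpc4, -2.10 ± 0.73 in sh-Gpc2 and -1.75 ± 0.15 in sh-NT libraries (SD, n = 3 each). The sh-Gpc4 mean minus the sh-NT mean was -0.96 (exact permutation p = 0.1, adjusted 0.3), and -0.48 without the outermost pair of libraries.

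Counted over all members, 0 of 10 passed the adjusted threshold in sh-Gpc4 over sh-NT with edgeR, as did 0 of all 27773 genes (0.0%), while DESeq2's Wald test called 45 genes, none of them a member, and limma voom none. At an unadjusted p under 0.05 edgeR gave 1 member, Wnt7b, and 2657 genes (9.57%). The 3 sh-Gpc4 and 3 sh-NT libraries did not overlap for 4 of the 10 members, Wnt7b, Lrp5 and Fzd2 with lower and Lrp6 with higher values, against 24.0% of all genes. With lower values alone it was 3 of 10 members, against 13.2% of all genes. In sh-Gpc2 over sh-NT, 0 members and 0 genes (0.0%) were called by edgeR, by DESeq2 or by voom, 0 members had an unadjusted p under 0.05 against 712 genes (2.56%), and 0 members had groups that did not overlap against 7.7% of all genes. In sh-Gpc4 over sh-Gpc2 the calls were again 0 members and 0 genes (0.0%) by each tool, 0 members had an unadjusted p under 0.05 against 804 genes (2.89%), and 0 members had groups that did not overlap against 5.5% of all genes.

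**Figure D2:**
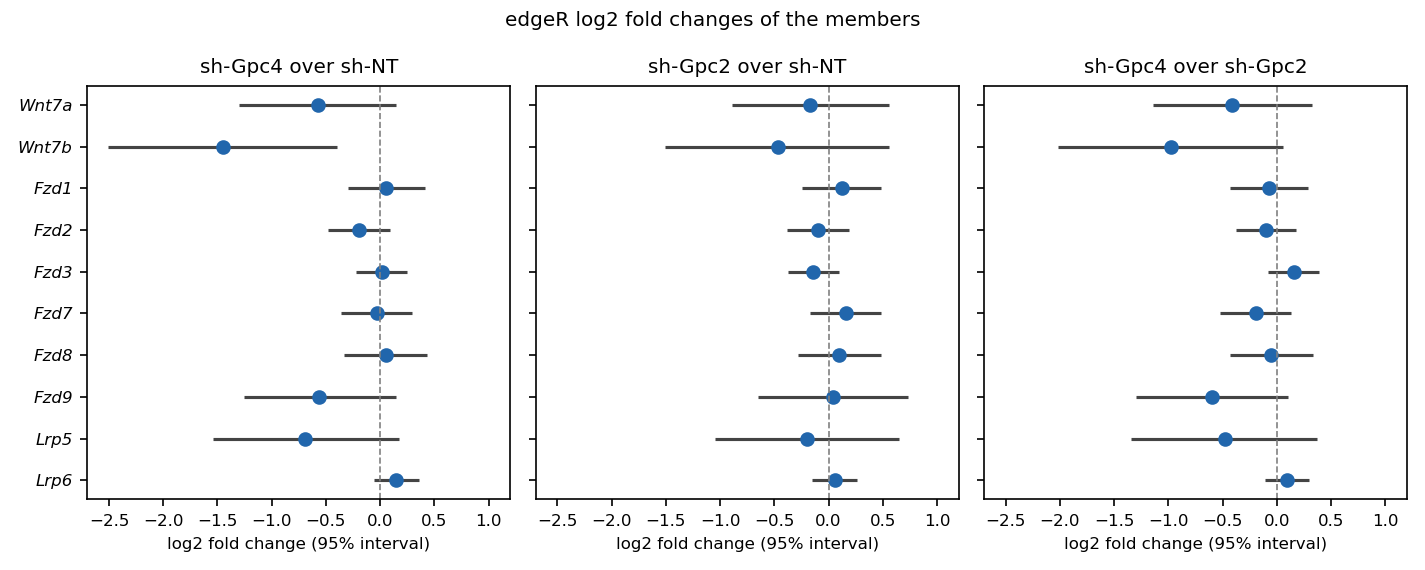
Log2 fold changes (x axes) of the 10 genes in the 3 comparisons, from edgeR's quasi-likelihood fit to 9 libraries; dots are estimates, lines 95% intervals and the dashed line is no difference. Only the interval of Wnt7b in sh-Gpc4 over sh-NT, -2.51 to -0.40, leaves out 0, before adjustment over all genes.

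Levels of different genes were compared as CPM per kilobase of the longest transcript. In sh-NT libraries Wnt7b came first with 45.5 ± 6.27 CPM per kilobase (SD, n = 3), then Fzd3 with 20.6 ± 1.72, Fzd2 with 8.85 ± 0.60, Fzd1 with 8.20 ± 1.2, Lrp6 with 5.95 ± 0.376 and Wnt7a with 4.68 ± 0.925. Lrp5, Fzd7, Fzd8 and Fzd9 followed with 1.86, 1.12, 0.707 and 0.473 CPM per kilobase. The ranges of Fzd2 and Fzd1 overlapped, as did those of Lrp6 and Wnt7a, and the other neighbours did not. In sh-Gpc4 libraries Fzd3 came first, with 20.9 ± 2.22 CPM per kilobase, but its range overlapped that of Wnt7b, with 16.6 ± 6.96. In sh-Gpc2 libraries Wnt7b (32.8 ± 20.9 CPM per kilobase) and Fzd3 (18.7 ± 1.31) overlapped as well. Wnt7a came after Lrp6 in all 3 groups, and Fzd7, Fzd8 and Fzd9 came last in that order, but the ranges of Lrp5 and Fzd7 overlapped in both hairpin groups and those of Fzd8 and Fzd9 in sh-Gpc2. This order depends on the length used. Per kilobase of all exons joined, Wnt7a came before Lrp6 in sh-NT (4.68 and 4.08 CPM per kilobase), Fzd7 before Lrp5 in sh-Gpc4 (1.10 and 1.06), and Wnt7b had 11.5, 22.8 and 31.6 CPM per kilobase in sh-Gpc4, sh-Gpc2 and sh-NT.

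**Figure D3:**
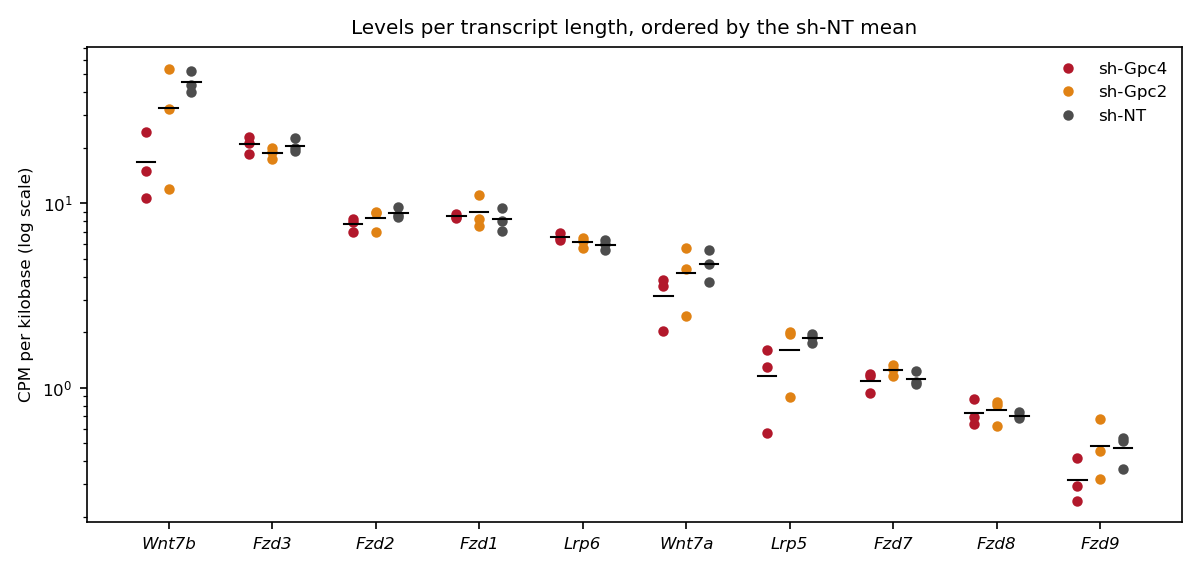
CPM per kilobase of the longest transcript (log scale) of the 10 genes, ordered by their sh-NT mean; dots are libraries and black bars the mean of 3. Wnt7b averages 16.6 in sh-Gpc4, 32.8 in sh-Gpc2 and 45.5 in sh-NT libraries, while Fzd3 averages 20.9, 18.7 and 20.6 in the same groups.

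Among all 19 Wnt ligand genes, Wnt7b made up 77.3% ± 5.43 of the summed CPM per kilobase in sh-Gpc4, 82.6% ± 7.51 in sh-Gpc2 and 88.2% ± 1.39 in sh-NT libraries (SD, n = 3 each). Wnt7a held 15.1% ± 3.11, 12.4% ± 4.35 and 9.08% ± 1.30 in those groups. Wnt5b, a ligand of the β-catenin-independent branch, was next with 4.75%, 3.38% and 1.56%, at 0.933, 0.921 and 0.796 CPM per kilobase. A share moves with Wnt7b itself, so these are no separate observation on the other ligands. Of the 17 Wnt ligands outside the members, 12 did not pass the filter on low counts, with at most 0.152 CPM in any library, and Wnt2b, Wnt3, Wnt5a, Wnt5b and Wnt9a did. Wnt5a, named after its values were seen, reached 2.67 CPM in 1 sh-Gpc4 library. Of the 10 Frizzled genes, Fzd3 made up 52.0% ± 3.21, 47.6% ± 2.69 and 50.1% ± 2.22 of the summed CPM per kilobase in sh-Gpc4, sh-Gpc2 and sh-NT libraries. Fzd1 and Fzd2 each held between 19.3% and 22.5% in the group means. Lrp5 was 14.8% ± 6.42 of Lrp5 and Lrp6 together in sh-Gpc4, 20.5% ± 7.34 in sh-Gpc2 and 23.8% ± 1.87 in sh-NT libraries.

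The members that were lower in sh-Gpc4 libraries also varied along the first principal component. Wnt7b, Wnt7a and Lrp5 had their lowest values in sh-Gpc4 library 3 and sh-Gpc2 library 4, the outermost libraries, and Lrp6 was highest in the first of them, with 65 CPM. Without that pair, Wnt7b measured 82.5 and 50.9 CPM in sh-Gpc4 and at least 137 CPM in sh-NT libraries, a log2 fold change of -1.23 (SE 0.26, adjusted p = 0.183 in edgeR). The same edgeR fit gave -0.37 for Lrp5 (SE 0.13, adjusted p = 0.434) and -0.35 for Wnt7a (SE 0.19, adjusted p = 0.595). For sh-Gpc2 over sh-NT it gave -0.09 for Wnt7b, 0.09 for Wnt7a and 0.07 for Lrp5.

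**Figure D4:**
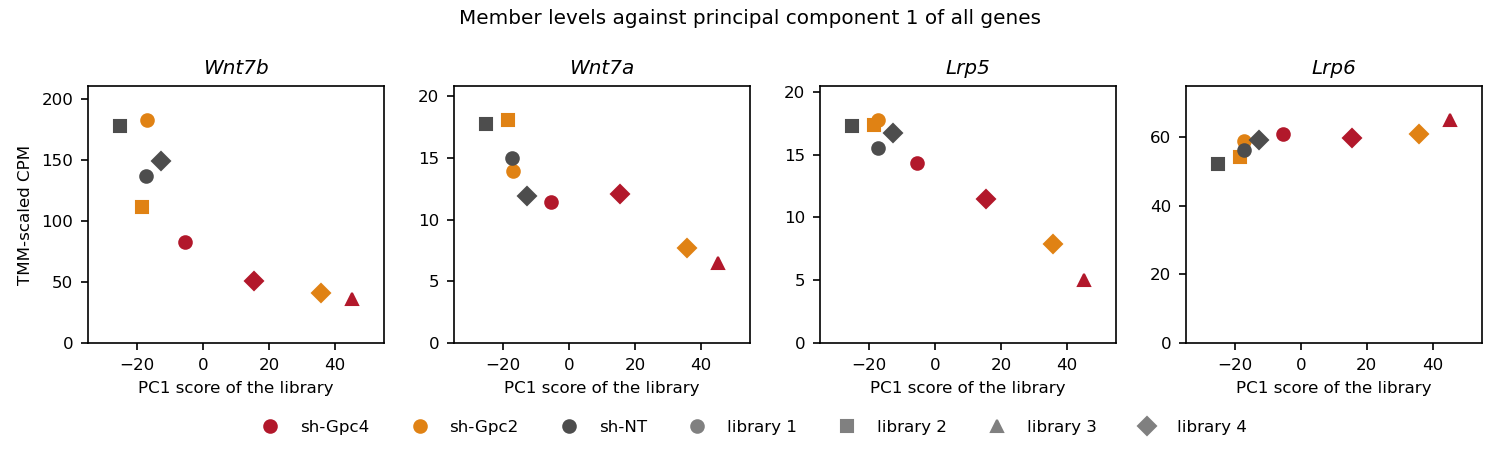
TMM-scaled CPM (y axes, from 0) of Wnt7b, Wnt7a, Lrp5 and Lrp6 against the score of each of the 9 libraries on principal component 1 of 12365 genes; colours mark groups and symbols library numbers. The libraries scoring 45.2 (sh-Gpc4 library 3) and 35.7 (sh-Gpc2 library 4) have the lowest Wnt7b, 36.2 and 40.7 CPM.

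The GC content of the longest transcript moved with part of these differences too. Wnt7b has 59.4% GC, Wnt7a 55.4%, Lrp5 54.7%, Lrp6 46.0% and Fzd3 40.3%. Fzd9, with 62.2% GC, and Fzd2, with 56.6%, also had log2 fold changes below 0 in sh-Gpc4 over sh-NT, whereas Fzd1, with 55.7%, had 0.05. Fzd7, with 53.9%, had -0.03 and Fzd8, with 51.7%, had 0.05, against -0.69 for Lrp5. The fold changes thus did not follow GC content throughout. With the GC trend of each library removed, sh-Gpc4 over sh-NT gave -1.19 for Wnt7b (SE 0.36, unadjusted p = 0.00927, adjusted p = 0.441 in edgeR), -0.57 for Lrp5, -0.42 for Wnt7a, -0.17 for Fzd9, 0.25 for Fzd1 and 0.05 for Lrp6. The part of sequence composition in these differences beyond that correction was not tested.

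**Figure D5:**
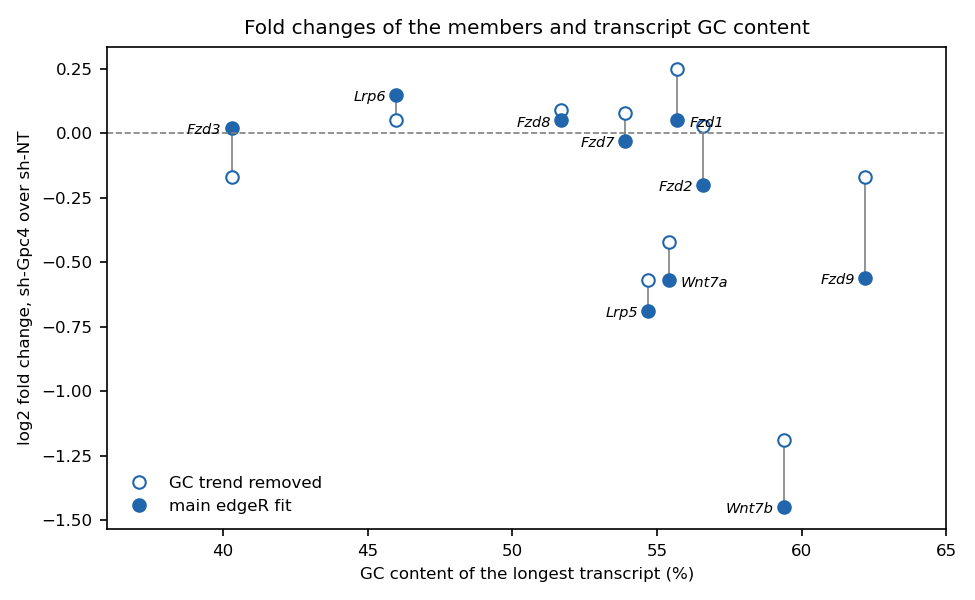
Log2 sh-Gpc4 over sh-NT (y axis) against GC content of the longest transcript in percent (x axis) for the 10 genes; filled dots are from the edgeR fit, open dots from the fit with each library's GC trend removed. Wnt7b lies at -1.45 and -1.19, apart from the other 9 genes in both.

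The genes whose log2 CPM was most like that of Wnt7b over the 9 libraries, among 9822 other genes with a mean of at least 10 CPM, were Plppr2 (Pearson r = 0.996), Dtx1 (0.996), Atxn2l (0.994), Mmp15 (0.994) and Slc29a4 (0.993). Spearman's rho was 0.983 for the first 4 and 1.0 for Slc29a4, and without the outermost pair of libraries Pearson's r was 0.985 to 0.994. Plppr2 measured 19.2, 8.46 and 12.2 CPM in sh-Gpc4 libraries, 32.7, 22.3 and 9.1 CPM in sh-Gpc2 libraries and 26.4, 35.1 and 28.8 CPM in sh-NT libraries, the order of libraries seen for Wnt7b but for 1 exchange. All 5 have between 57.2% and 62.5% GC and log2 fold changes of -1.26 to -0.86 in sh-Gpc4 over sh-NT. Having been picked for their likeness to Wnt7b over the same libraries, they give no separate observation by the direction of these fold changes. The likeness is shared by many genes: 1220 (12.4%) had r over 0.9 with Wnt7b, with a median GC content of 55.6%, and 422 (4.3%) had r under -0.9, with a median of 44.1%, against 49.2% over all. Of the members, Lrp5 (r = 0.903) and Fzd2 (0.899) were most like Wnt7b, followed by Wnt7a (0.820) and Fzd9 (0.718), while Lrp6 had r = -0.714. Without the outermost pair Lrp5 had 0.921, Fzd2 had 0.720 and Wnt7a 0.468. These correlations describe libraries that share their hairpin group and their place on the first component. AU022754, the gene overlapping Wnt7b, measured 2.70, 1.62 and 2.09 CPM in sh-Gpc4 libraries, 7.57, 4.10 and 1.49 CPM in sh-Gpc2 libraries and 5.87, 8.15 and 6.24 CPM in sh-NT libraries, and since reads of both strands may have been counted, its part in Wnt7b's counts and that of Wnt7b in its own cannot be told apart.

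Other genes of the pathway were taken from lists and none passed the adjusted threshold in any comparison. In sh-Gpc4 over sh-NT, 12 of the 73 listed genes tested (16.4%) had an unadjusted p under 0.05 in edgeR, against 9.57% of all genes, and the log2 fold change of all 27773 genes had a median of 0.02, with 47.2% below 0. Of 9 other Wnt receptors tested, 8 had a log2 fold change below 0, with a median of -0.46. Fzd6, a Frizzled of the planar polarity branch, measured 1.14, 1.06 and 1.18 CPM in sh-Gpc4 libraries and 1.45, 2.03 and 1.98 CPM in sh-NT libraries (log2 fold change -0.69, unadjusted p = 0.013, adjusted p = 0.488 in edgeR), and the groups did not overlap. Ryk, an atypical receptor kinase that binds Wnt ligands, was the only one above 0, with 20.5, 25.2 and 21.3 CPM in sh-Gpc4 libraries and 18.6, 16.9 and 19.2 CPM in sh-NT libraries (0.29, unadjusted p = 0.0339, adjusted p = 0.488 in edgeR). Ptk7, a pseudokinase of planar polarity, measured 95.9, 21.7 and 49.9 CPM in sh-Gpc4 libraries and 108, 133 and 105 CPM in sh-NT libraries, with its lowest value in sh-Gpc4 library 3 (-1.05, SE 0.57).

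Among genes that make or release Wnt ligands, Porcn had a log2 fold change of -0.32 (SE 0.23) and Wls, the carrier that takes Wnt ligands to the cell surface, one of 0.44 (SE 0.20, adjusted p = 0.488 in edgeR). Of 8 secreted inhibitors tested 4 lay above and 4 below 0, with a median of 0.06, and Sfrp1, the most abundant, averaged 258 ± 8.03 CPM in sh-Gpc4 and 229 ± 10.5 CPM in sh-NT libraries (0.17, SE 0.08). The 7 genes of the R-spondin module, which sets Frizzled turnover, had a median of 0.09 and none with an unadjusted p under 0.05.

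Of 14 cytoplasmic transducers tested, 10 lay below 0, with a median of -0.04 and none with an unadjusted p under 0.05. Ctnnb1, which encodes β-catenin, averaged 364 ± 32.5 CPM in sh-Gpc4 and 374 ± 24.8 CPM in sh-NT libraries (-0.04, 95% interval -0.24 to 0.16). Of 12 nuclear effectors, 4 with an unadjusted p under 0.05 were lower (Bcl9 -0.58, Bcl9l -0.69, Pygo2 -0.85 and Tle3 -0.49) and 1 higher (Tle1 0.26). Bcl9, Bcl9l and Pygo2 encode co-activators of β-catenin, and Tle1 and Tle3 co-repressors of Tcf factors. Pygo2 measured 14.7, 9.3 and 11.6 CPM in sh-Gpc4 libraries and 19.7, 25 and 19.4 CPM in sh-NT libraries, without overlap.

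Of 10 canonical Wnt targets tested, 9 lay below 0, with a median of -0.21. Axin2, a feedback inhibitor widely used as a readout of the pathway, measured 7.09, 4.5 and 6.17 CPM in sh-Gpc4 libraries, 8.37, 8.71 and 4.52 CPM in sh-Gpc2 libraries and 8.53, 9.97 and 7.93 CPM in sh-NT libraries. The sh-Gpc4 values were below the sh-NT values, and the lowest of the other groups was again sh-Gpc2 library 4 (sh-Gpc4 over sh-NT -0.57, SE 0.26, unadjusted p = 0.0518, adjusted p = 0.488 in edgeR). Nkd1, an antagonist of Dishevelled, gave -0.81 (SE 0.35), Ccnd1, the cell cycle cyclin, -0.50 (SE 0.25), and Neurog1, a proneural factor, -1.58 (SE 0.69). Of these Nkd1 and Neurog1 had an unadjusted p under 0.05 in edgeR. Axin2, Nkd1, Ccnd1 and Neurog1 were named for the smallest p in their list. The other targets gave -0.26 for Rnf43, -0.16 for Tnfrsf19, -0.08 for Nkd2, -0.05 for Znrf3, -0.03 for Myc and 0.14 for Lef1. Of 8 planar polarity genes 7 lay below 0, with a median of -0.31, and the cadherins Celsr1 (-0.82, SE 0.34) and Celsr2 (-0.35, SE 0.14) had an unadjusted p under 0.05.

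In sh-Gpc2 over sh-NT, 2 of the 73 listed genes tested (2.74%) had an unadjusted p under 0.05 in edgeR, both higher, a share near the 2.56% of all genes. They were Prickle2, a planar polarity protein, with 5.55 ± 0.602 CPM in sh-Gpc2 and 3.92 ± 0.505 CPM in sh-NT libraries (0.50, SE 0.18), and the inhibitor Dkk1, with 0.214 ± 0.0338 and 0.0793 ± 0.0276 CPM in those groups. Dkk1, Tle3, Ctnnb1, Rnf43, Tnfrsf19, Nkd2, Myc and Lef1 were named after their values were seen. Medians of the lists lay between -0.25 for nuclear effectors and 0.08 for secreted inhibitors, against 0.00 over all genes. In sh-Gpc4 over sh-Gpc2 no listed gene had an unadjusted p under 0.05 in edgeR, and DESeq2's Wald test gave 1. All 8 planar polarity genes lay below 0 there, with a median of -0.16, against 50.5% of all genes below 0 and a median of 0.00. The comparisons share libraries, so their values are set side by side and not counted as agreement.

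Some marker sums of other cell types lay apart in sh-Gpc4 and sh-NT libraries, whereas those of microglia and endothelial cells overlapped. GABAergic markers summed to between 7.77 and 10.5 CPM in sh-Gpc4, between 13.5 and 16.2 CPM in sh-Gpc2 and between 11 and 56.8 CPM in sh-NT libraries, with 8 of 8 tested markers below 0 in sh-Gpc4 over sh-NT. The sum of 56.8 CPM came from sh-NT library 1 alone, where Dlx1 measured 16.2 CPM and Dlx6os1 13.1 CPM. In sh-NT libraries 2 and 4 Dlx1 measured 1.54 and 1.47 CPM, and Dlx6os1 0.489 and 0.478 CPM. Oligodendrocyte precursor markers summed to at most 4.91 CPM in sh-Gpc4 and at least 5.41 CPM in sh-NT libraries (4 of 4 below 0). Mural cell markers ran from 9.61 to 14.4 CPM in sh-Gpc4, from 9.08 to 22.5 CPM in sh-Gpc2 and from 21 to 28 CPM in sh-NT libraries (6 of 6). Of these, Notch3 (7.37, 3.15 and 4.79 CPM in sh-Gpc4, 10.2, 13 and 9.38 CPM in sh-NT libraries) and Pdgfrb lay apart. Rgs5 (1.24, 4.09 and 3.65 CPM in sh-Gpc4, 2.93, 2.94 and 4.19 CPM in sh-NT libraries), Kcnj8, Abcc9 and Anpep overlapped. Endothelial markers summed to between 81.7 and 99.3 CPM in sh-Gpc4 and between 91.4 and 103 CPM in sh-NT libraries. Slco1c1 made up most of each sum, with 60.8 to 72.5 CPM in sh-Gpc4 and 64.3 to 76.8 CPM in sh-NT libraries. Cldn5, Cdh5, Flt1 and Tek reached at most 1.13 CPM in any library. Of the endothelial markers tested, 6 of 7 were below 0. Microglial markers summed to between 1130 and 1680 CPM in sh-Gpc4, between 435 and 1490 CPM in sh-Gpc2 and between 864 and 1320 CPM in sh-NT libraries, with 1 of 10 below 0. Radial glia markers were below 0 in 9 of 12 and deep-layer neuron markers in 4 of 7, with medians of -0.05 and -0.06. None of these markers was called, and their part in the values of Wnt7b, Lrp5 and the other members was not tested. In sorted bulk samples, fewer cells that make a transcript and less of it per cell cannot be told apart.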

How the data were processed

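The deposited file is 1 table of raw read counts per gene in 9 libraries. The authors counted reads with featureCounts from Subread on GRCm38 (mm10), per the submitters' processing notes. Per the labels' protocols, RNA came from a PicoPure kit and libraries from a NEBNext low-input kit. For aligner, annotation release and strand setting, the sources used here give nothing. Symbols, lengths and GC content came from GENCODE M21, which named 51486 of 78275 IDs (65.8%), and promoters from RefSeq (GRCm38.p6). Columns were placed in groups by name, and no column belonged to another series.

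Counts were fitted with edgeR 4.0.16 in R 4.3.3 (TMM, filterByExpr, quasi-likelihood test over all 9 libraries, no covariate), with Benjamini-Hochberg adjustment over 27773 genes and a threshold of 0.05. The steps were tested on simulated counts. DESeq2 1.42.0, limma 3.58.1 (voom with sample weights), other filters, a replicate block, removal of a GC trend (spline with 6 degrees of freedom, for the 22126 genes with GC content) and leaving out libraries were the alternatives. Leaving out the outermost pair of libraries was chosen after seeing the data. None of the 9 pairs of libraries within a group was a duplicate, with a chi-square per degree of freedom of at least 8.56.

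The members, gene lists and tests were chosen with earlier results of these data known, so list counts are descriptions. Named pathway genes were up to 4 per list with the smallest unadjusted p over the 3 comparisons among genes with a mean of at least 1 CPM. Members were always named, as were the 5 genes most like Wnt7b.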

Additional observations from a re-analysis of the deposited data

How the results depend on the processing

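No member was called at the adjusted threshold in any comparison under any alternative run. Wnt7b in sh-Gpc4 over sh-NT ran from -1.83 to -1.04 (adjusted p from 0.0531 with voom to 0.963 with the replicate block), Lrp5 from -1.0 to -0.21, Wnt7a from -0.74 to -0.03 and Lrp6 from 0.01 to 0.19, without a change of sign. DESeq2's Wald test called 45 genes in that comparison, where edgeR and voom called 0.

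Members with an unadjusted p under 0.05 in sh-Gpc4 over sh-NT numbered 3 with voom, 3 without a filter and 2 with only the groups compared. They numbered 2 without the outermost pair of libraries, and 1 to 3 with single libraries left out. Over all genes these were 9011 of 27773 with voom, 5063 of 56180 without a filter and 4716 of 27078 with only the groups compared. Without the outermost pair they were 2754 of 28177, and with single libraries left out between 1091 and 4607. In sh-Gpc2 over sh-NT members numbered 0 to 1 with single libraries left out, the 1 being without sh-Gpc2 library 1. In that fit 1694 of 28530 genes had such a p. In sh-Gpc4 over sh-Gpc2 members numbered 1 with DESeq2, 1 with voom, 1 without a filter and 2 without the outermost pair. They numbered 0 to 4 with single libraries left out, the 4 being without sh-Gpc2 library 4. Over all genes these were 788 of 27767 with DESeq2, 1330 of 27773 with voom and 1923 of 56180 without a filter. Without the outermost pair they were 2144 of 28177, and without sh-Gpc2 library 4 they were 3653 of 28509. DESeq2 gave 1 pathway list gene with such a p in sh-Gpc4 over sh-Gpc2.

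Whether equal column numbers mark paired libraries was not settled. Over 7 pairs with the same number, correlations of deviations from the group means ran from -0.09 to 0.68. Pairs with different numbers ran from -0.87 to 0.83, a range that holds the first, so these values cannot decide it. With the replicate block, sh-Gpc4 over sh-NT gave 1005 genes with an unadjusted p under 0.05 in edgeR, against 2657 without it. Only sh-Gpc4 library 3 has the number 3, so the block fits it alone and in effect leaves it out. Leaving out that library without a block gave 1091 genes. What the block changed through pairing and through the loss of that library cannot be told apart. For sh-Gpc2 over sh-NT the block gave 1448 genes, against 712 without it. In sh-Gpc4 over sh-NT the block turned the sign of Fzd1 (-0.02), Fzd3 (-0.04) and Fzd7 (0.13). In sh-Gpc4 over sh-Gpc2 the block turned Wnt7a (0.11), Fzd2 (0.03) and Fzd8 (0.09).

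With the GC trend removed, signs turned for Fzd2 (0.03), Fzd3 (-0.17) and Fzd7 (0.08) in sh-Gpc4 over sh-NT, for Fzd2 (0.01) in sh-Gpc2 over sh-NT, and for Fzd1 (0.03) and Fzd2 (0.02) in sh-Gpc4 over sh-Gpc2. GC removal with the replicate block turned Fzd2 (0.02), Fzd3 (-0.13) and Fzd7 (0.17), then Fzd2 (0.01), and then Wnt7a (0.10), Fzd2 (0.01) and Fzd8 (0.07) in the same 3 comparisons. Voom turned Fzd7 (0.01) in sh-Gpc4 over sh-NT and Fzd8 (0.13) in sh-Gpc4 over sh-Gpc2. Without the outermost pair, Fzd7 was 0.06 in sh-Gpc4 over sh-NT, Wnt7a 0.09, Lrp5 0.07 and the log2 ratio of Lrp5 to Lrp6 0.07 in sh-Gpc2 over sh-NT, and Fzd8 0.14 in sh-Gpc4 over sh-Gpc2. The causes were not tested.

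With single libraries left out, sh-Gpc4 over sh-NT ranged from -0.04 to 0.17 for Fzd1, from -0.06 to 0.10 for Fzd3, from -0.10 to 0.08 for Fzd7 and from -0.09 to 0.16 for Fzd8. sh-Gpc2 over sh-NT ranged from -0.46 to 0.11 for Wnt7a, from -0.06 to 0.24 for Fzd1, from -0.16 to 0.01 for Fzd2, from -0.27 to 0.26 for Fzd9, from -0.38 to 0.09 for Lrp5 and from -0.58 to 0.07 for the ratio of Lrp5 to Lrp6. sh-Gpc4 over sh-Gpc2 ranged from -0.18 to 0.12 for Fzd1 and from -0.19 to 0.05 for Fzd8. Fzd8 and Fzd9 did not pass the stricter filter of over 5 CPM and have no value there. Levels per kilobase moved by more than 1 SD with the joined exon length for Wnt7b and Lrp5 in sh-NT and for Lrp6 in all 3 groups.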
